A study of Mus musculus with 34 samples.

Results

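Wnt signalling was examined at the cell surface in the distal colon of mice with recurrent TNBS colitis, through the secreted Wnt ligands, the R-spondins, the Frizzled receptors with their coreceptors Lrp5 and Lrp6, and the secreted antagonists of the Sfrp, Dickkopf, Wif1 and Frzb kind. Members were all probes whose gene symbol began with Wnt, Fzd, Sfrp or Dkk followed by a digit, or was Rspo1 to Rspo4, Wif1, Frzb, Lrp5 or Lrp6. This gave 57 probes of 25697 on the array, for 43 genes of 16593 named, and no measured value entered the choice. Of these, 28 probes for 19 genes measured Wnt ligands, 4 probes for 4 genes R-spondins, 11 probes for 8 genes Frizzled receptors, 2 probes Lrp5 and Lrp6, 6 probes for 6 genes antagonists that bind Wnt proteins, and 6 probes for 4 genes Dickkopf proteins. Fzd5 was not among the probes.

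Wnt proteins are secreted lipid-modified ligands that bind a Frizzled receptor together with Lrp5 or Lrp6, which stabilizes beta-catenin and switches on genes such as Axin2. In the intestine this signal maintains the stem cells at the base of the crypts, and much of it comes from fibroblast-like cells around the crypts. R-spondins bind Lgr receptors and keep the ubiquitin ligases Rnf43 and Znrf3 from removing Frizzled receptors, so that they amplify the signal. Sfrp proteins, Frzb and Wif1 bind Wnt proteins outside the cell, whereas Dkk1, Dkk2 and Dkk4 bind Lrp5 and Lrp6. Wnt5a and Wnt11 act mainly through routes that do not need beta-catenin.

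RNA of the distal colon came from female BALB/c mice and was hybridised to 1-colour Illumina bead arrays, 1 array for each mouse. Mice with colitis had been sensitized on the skin with TNBS in ethanol on day 0 and given rising doses of TNBS in ethanol into the colon on days 7, 14 and 21. They were killed on days 9, 16 and 23 (2 days after an instillation) or on days 14, 21 and 28 (7 days after one, and on days 14 and 21 before the next), with 5 mice on each day, against 4 healthy mice for which the labels give neither a day nor a treatment. TNBS, skin sensitization and ethanol vehicle therefore cannot be told apart in any comparison with healthy mice. Values are log2 intensities, and they are compared only within a probe.

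The arrays had medians of 4.77 to 4.78 log2 units, a likeness that quantile normalization imposes. Correlations within a group were 0.94 to 0.97. A probe counted as above background where it exceeded the 95th percentile of 1324 olfactory, vomeronasal and trace amine receptor probes on the same array (22.3 to 30.5 on the linear scale), and 48.5 to 52.8% of all probes did. Colon epithelium markers were high throughout, with each of the 11 above background in some array. In 5 TNBS mice, skeletal muscle markers averaged more than 3 log2 units above the healthy mean (mice 2, 3 and 5 on day 9, mouse 5 on day 14 and mouse 5 on day 21). Stratified squamous epithelium markers averaged more than 2 log2 units above it in 3 TNBS mice (mice 4 and 5 on day 9 and mouse 4 on day 14). Values without these arrays are given for Wnt5a, Wnt4, Rspo3, Sfrp1 and Wif1.

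Few members gave a steady signal. Probes for 9 genes were above background on all 34 arrays, namely 1 of 19 ligands (Wnt5a), 1 of 4 R-spondins (Rspo3), 3 of 8 Frizzled receptors (Fzd2, Fzd6 and Fzd7), the coreceptor Lrp5, 2 of 6 antagonists that bind Wnt proteins (Sfrp1 and Wif1) and 1 of 4 Dickkopf genes (Dkk3, with 2 probes). With the 99th percentile of the receptor probes as background, 5 genes remained on that list. A further 12 genes were never above background in any mouse, TNBS or healthy: Wnt1, Wnt3, Wnt3a, Wnt7a, Wnt8a, Wnt8b, Wnt9b, Wnt16, Rspo2, Dkk2, Dkk4 and Sfrp4. For these genes the arrays give only an upper bound, so that neither presence nor absence of the transcript can be read from them.

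Wnt3, a ligand made by Paneth cells in the mouse small intestine, was not above background in any of the 34 mice. Several ligands known from intestinal stroma or epithelium exceeded background in only a few mice. Wnt2b exceeded background on 1 of its 2 probes, in 1 of 5 mice on day 9 and 1 of 5 on day 28, and in 0 of 4 healthy mice. Wnt5b did so in 2 of 5 mice on day 16 and 1 of 5 on day 21, Wnt6 in 1 of 5 on day 23 and Wnt11 in 1 of 5 on day 16, again in 0 of 4 healthy mice for each. Among the antagonists, Frzb was above background in 1 of 5 mice on day 28 and in 0 of 4 healthy mice. Dkk1, an inhibitor that binds the coreceptors, was above background in 2 of 5 mice on day 9 and 1 of 5 on day 14, against 0 of 4 healthy mice.

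**Figure D1:**
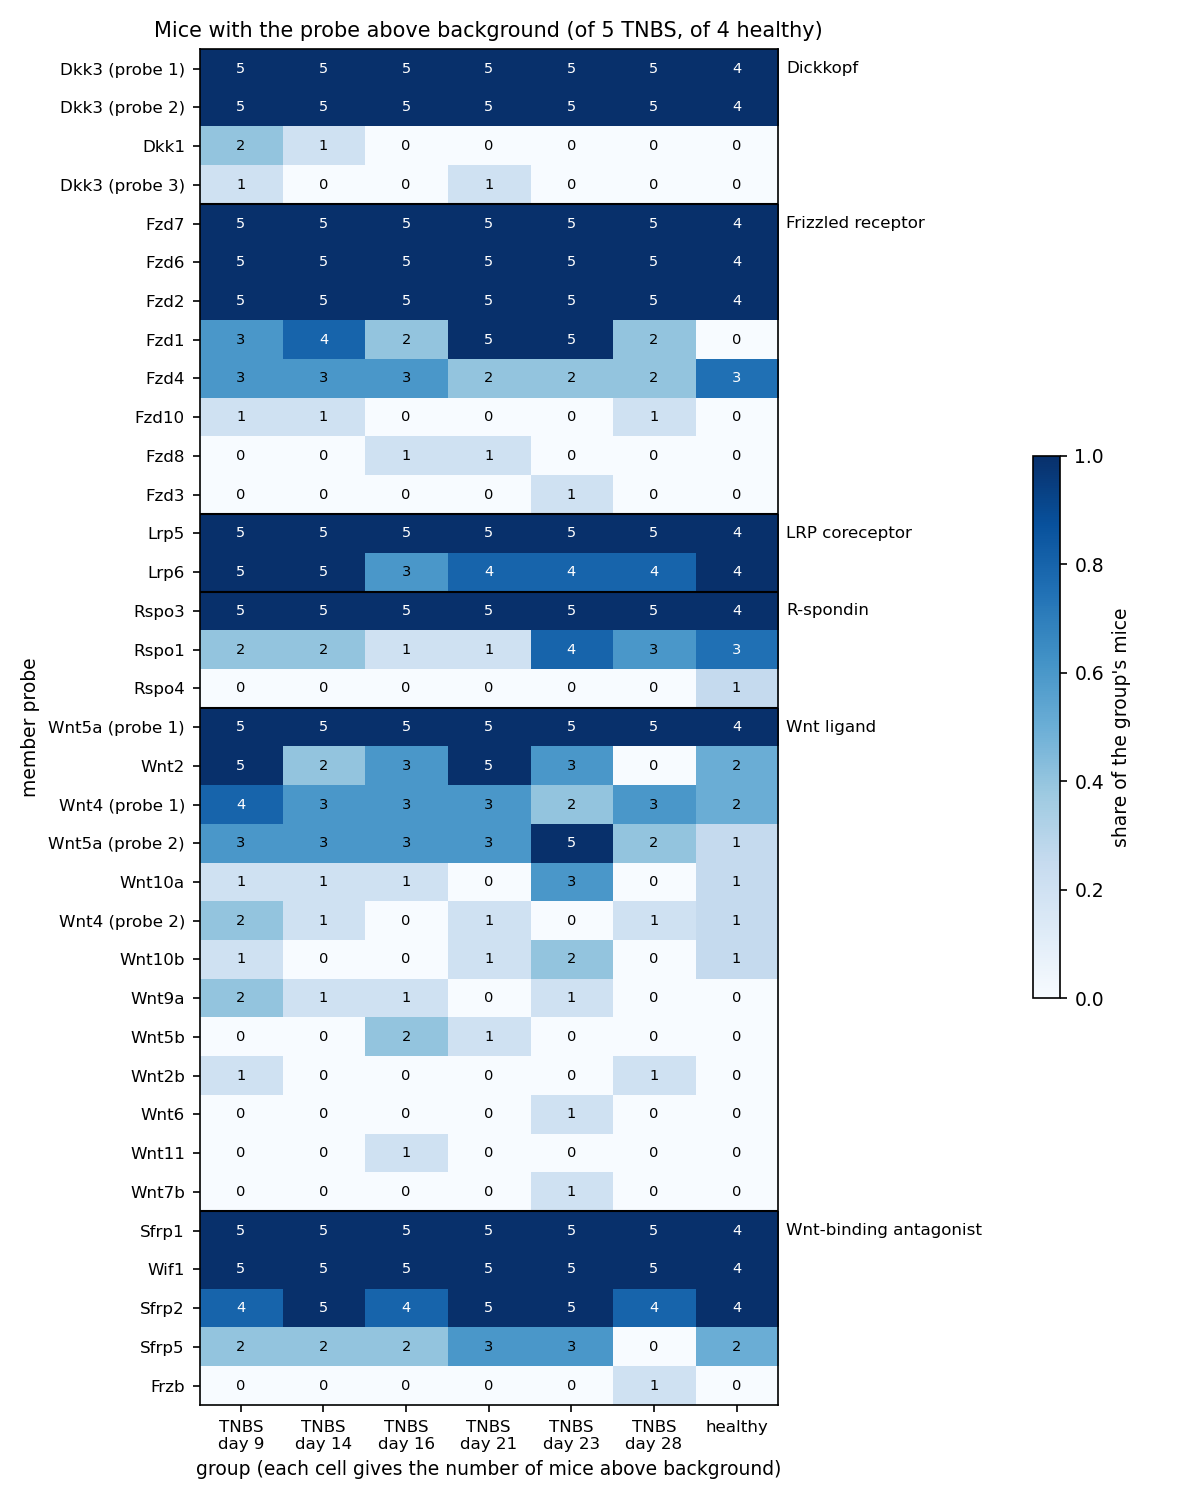
Number of mice in which each member probe exceeded background, for all member probes above background in at least 1 array, by role (rows) and group (columns, the 6 TNBS days and then healthy mice). Shade gives the share of the group's mice, and 10 probes for 9 genes are filled in every column.

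Of the 57 probes, 43 for 35 genes passed the filter on low values (above the floor of 5 in at least 4 arrays) and were tested with limma over 21110 probes. Across the 6 days, 1 member probe was called at an adjusted p under 0.05, a probe for Wnt5a on day 23, where 7.01% of all tested probes were called in either direction and 3.49% higher. No member was called on the other days, on which 2% (day 9), 0.459% (day 14), 3.92% (day 16), 0.701% (day 21) and 1.26% (day 28) of all probes were. At an unadjusted p under 0.05 there were 3 or 4 of the 43 probes on each day (6.98 to 9.3%), beside 10.7 to 20.1% of all tested probes. The median log2 change of the 43 probes lay between -0.15 (day 28) and -0.01 (day 21), and that of all tested probes between -0.03 and 0.

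A second view asked how often the mice of a TNBS day lay wholly outside the range of the healthy mice. On day 9, 1 member probe (Wif1) was higher in every mouse, beside 2.37% of all tested probes, and none was lower, beside 2.55%. None was higher on day 14 (2.08% of all probes) and 1 was lower, for Dkk3 (2.69%). On day 16 none was higher (4.16%) and 1 was lower, again for Dkk3 (4.84%). With 43 probes tested, 1 probe is 2.33%, so that these shares are close to or under those of all tested probes.

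On day 21, 1 member probe (Fzd1) was higher in every mouse (2.43% of all probes) and none was lower (2.67%). On day 23, 2 were higher, Fzd1 and Wnt5a (3.8%), and none was lower (4.42%). On day 28 none was higher (3.42%) and 3 were lower, both steady Dkk3 probes and Sfrp2 (3.37%). The 3 probes are 6.98% of the 43 tested, and 2 of them measure the same gene.

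Wnt5a, a ligand of stromal cells that acts mainly without beta-catenin, had 2 probes, which gave different pictures. Probe ILMN_2472917 read 5.34, 5.13, 5.24, 5.00 and 5.39 log2 units in the day 23 mice, against 2.83, 3.81, 4.73 and 3.58 in healthy mice. The groups did not overlap, and the probe was above background in 5 of 5 day 23 mice and 1 of 4 healthy mice. With the 99th percentile of the receptor probes as background, it was above background in 0 of the 34 mice. Its mean was 5.22 ± 0.16 on day 23 and 3.73 ± 0.78 in healthy mice (SD, n = 5 and 4), a fitted log2 change of 1.49 (SE 0.46, 95% interval 0.55 to 2.42, adjusted p = 0.044 by limma). Since 3 of 4 healthy mice were not above background, the size of this change was not measured. With each healthy mouse set to background, or to its own value where that was higher (mean 4.71), the probe was at least 1.43-fold higher on day 23. In bulk tissue, more cells of a type and more RNA per cell cannot be told apart.

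On the other days the fitted log2 changes of the same Wnt5a probe were 0.92 (day 9), 0.91 (day 14), 0.75 (day 16), 1.12 (day 21) and 0.71 (day 28), with adjusted p between 0.29 and 0.55, and the mice of each of these days overlapped the healthy ones. It was above background in 3 of 5 mice on days 9, 14, 16 and 21 and in 2 of 5 on day 28. The day 21 mean (4.85) lay above the same healthy level of 4.71, but with only 3 of 5 mice above background it gives no least fold. The means of days 9, 14, 16 and 28 (4.45 to 4.66) lay below that level, so that no fold can be given for them either. The call on day 23 rested on a narrow margin: it was lost without any 1 of the day 23 mice or without healthy mouse 1, 2 or 4, day 14 mouse 2 or day 28 mouse 3 in turn (adjusted p = 0.18 and log2 change 1.18 without healthy mouse 1), and with only the day 23 and healthy mice in the fit (adjusted p = 0.069). The day 23 call was also lost without the 5 arrays with skeletal muscle markers (adjusted p = 0.052). It was kept without the 3 arrays with squamous markers (adjusted p = 0.04). The test of day 23 against day 9 gave 0.56 (SE 0.43, adjusted p = 0.75).

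The second Wnt5a probe, ILMN_2511913, was above background on all 34 arrays and was not called on day 23. It read 6.97, 6.52, 7.30, 6.77 and 6.21 log2 units in the day 23 mice, against 5.91, 6.70, 6.55 and 6.58 in healthy mice, so that the groups overlapped. Its log2 change on day 23 was 0.32 (95% interval -0.23 to 0.87, adjusted p = 0.58), and over the 6 days it ran between -0.23 (day 14) and 0.32. Across the 34 arrays the 2 Wnt5a probes had a Pearson r of 0.10 (permutation p = 0.58, adjusted 0.74) and a Spearman rho of 0.06 (permutation p = 0.72, adjusted 0.87), with r = -0.02 within groups. The files do not state which transcripts of Wnt5a each probe detects.

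Markers of several cell types also differed on day 23, when 3.49% of all tested probes were called higher and 3.51% lower. Of 11 stromal fibroblast markers tested, 4 were called higher and none lower, with a median log2 change of 0.42, and their summed intensity lay between 19158 and 23528 in day 23 mice, against 15929 to 17798 in healthy mice, with 1 of 12 markers (Gli1) never above background. For endothelium, 2 of 8 were called higher (median 0.69, sums of 1758 to 3157 on day 23, against 1473 to 1769 in healthy mice, Kdr never above background). Of 8 neutrophil and macrophage markers, 2 were called higher (median 1.01, sums of 5134 to 21168 on day 23, against 5607 to 7452 in healthy mice, Itgam never above background). Of 10 squamous epithelium markers, 2 were called higher (median 0.66), with sums of 1122 to 2637 on day 23, against 429 to 596 in healthy mice, with no overlap and Ivl never above background. Of 11 colon epithelium markers, 1 was called higher and 1 lower (median -0.07). None was called of 9 smooth muscle markers (median -0.40) or 7 T, B and plasma cell markers (median -0.47). The same held for 10 skeletal muscle markers (median -0.01) and 8 markers of enteric neurons and glia (median 0.19). The part of these cell types in the Wnt5a value was not tested.

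**Figure D2:**
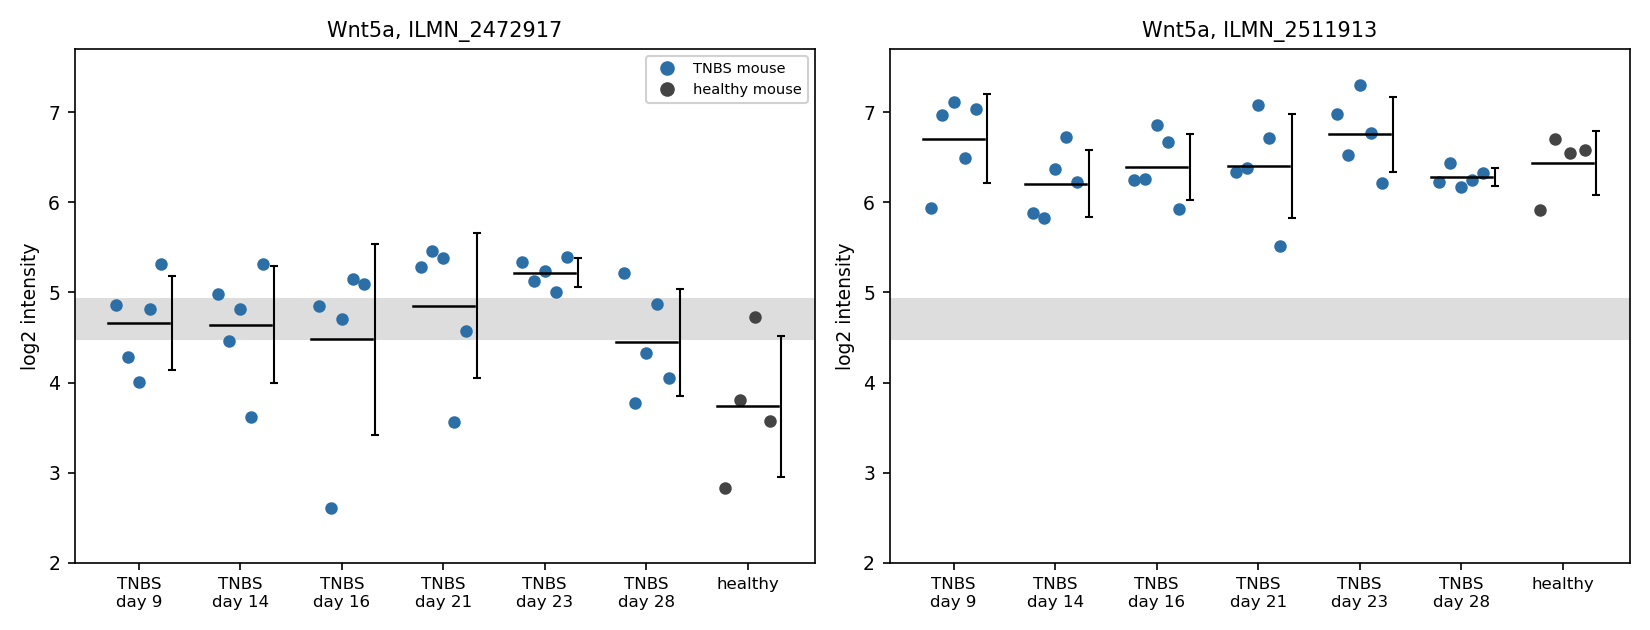
Log2 intensity of the 2 Wnt5a probes in each mouse (points), with group mean (line) and SD (whisker), for the 6 TNBS days and healthy mice. The grey band spans the background thresholds of the arrays (4.48 to 4.93). Day 23 stands wholly above healthy for ILMN_2472917 and overlaps it for ILMN_2511913.

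The remaining ligands that could be followed in many mice were Wnt2 and Wnt4. Wnt2, a ligand that acts through beta-catenin, read 5.20, 5.36, 5.00, 4.93 and 6.12 log2 units on day 9 and 3.90, 4.11, 3.86, 4.29 and 4.57 on day 28, against 4.75, 4.31, 5.16 and 5.97 in healthy mice. It was above background in 5 of 5 mice on days 9 and 21, in 0 of 5 on day 28 and in 2 of 4 healthy mice. The mean of Wnt2 was 4.15 on day 28 and 5.05 in healthy mice (fitted log2 change -0.90, SE 0.49, adjusted p = 0.45). Since only 2 of 4 healthy mice were above background, not even a least fold can be given. The difference did not pass the test, and day 28 overlapped healthy mice.

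Wnt4, a ligand of mesenchymal tissues and stratified epithelia, had 2 probes that moved together over the 34 arrays (Pearson r = 0.56, permutation p = 0.00054, adjusted 0.0024, Spearman rho = 0.48, permutation p = 0.0045, adjusted 0.020, r = 0.45 without the 2 arrays farthest from the median, r = 0.56 within groups). Probe ILMN_2889641 read 4.12, 4.87, 5.59, 4.96 and 6.52 log2 units on day 9 and 3.03, 4.55, 5.04, 5.80 and 5.35 on day 14, against 4.39, 5.25, 5.18 and 4.12 in healthy mice. The highest readings of days 9 and 14 came from mouse 5 and mouse 4, which were also those with the highest squamous epithelium markers of their days (means of 8.58 and 7.98 log2 units over 12 markers, 10 and 9 of them above background). Summed squamous markers spanned 667 to 40499 on day 9 and 477 to 33448 on day 14, against 429 to 596 in healthy mice, with Ivl never above background. Neither Wnt4 probe was called on any day (log2 changes of -0.32 to 0.48 for ILMN_2889641 and -0.84 to 0.37 for ILMN_2512663), and the part of squamous tissue in the Wnt4 values was not tested. Without the 3 arrays with squamous markers, the log2 changes of ILMN_2889641 were 0.13 on day 9, in place of 0.48, and -0.24 on day 14, in place of 0.02. Without the 5 arrays with skeletal muscle markers, they were -0.20 and -0.13 on these days, and none of these values passed the test.

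Rspo3, the R-spondin made by stromal and endothelial cells of the colon, was above background in every mouse and came nearest to a difference between the early and late phase of an instillation. It read 7.40, 7.50, 8.34, 7.24 and 8.0 log2 units on day 9, 7.57, 7.55, 7.41, 7.10 and 7.23 on day 16 and 8.03, 7.15, 7.51, 6.81 and 7.03 on day 23. On the later days of each instillation it read 6.60, 6.66, 6.91, 6.66 and 7.43 on day 14, 7.22, 6.95, 6.74, 7.19 and 7.86 on day 21 and 6.83, 7.34, 6.91, 7.22 and 6.74 on day 28. Healthy mice read 7.11, 7.37, 8.03 and 7.44. The 2 phases overlapped each other and the healthy mice.

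Averaged over the 3 instillations, Rspo3 was 0.44 log2 units higher 2 days than 7 days after an instillation (SE 0.14, 95% interval 0.16 to 0.72), which missed the threshold with an adjusted p of 0.051. No member was called in this comparison, in which 5.68% of all tested probes were, and 6 members (14%) had an unadjusted p under 0.05, beside 18.3% of all probes. The step was 0.84 (SE 0.24, adjusted p = 0.089) for day 9 against day 14, 0.18 for day 16 against day 21 and 0.30 for day 23 against day 28, and the test of the last step minus the first gave -0.54 (SE 0.33, adjusted p = 0.73). Rspo3 passed the threshold under several other settings, among them a moderated variance with trend (adjusted p = 0.025) and only probes above background (adjusted p = 0.035).

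Within days 9, 14 and 21 the highest Rspo3 values belonged to mice with skeletal muscle markers. On day 9 these were mice 3, 5 and 2 (8.34, 8.0 and 7.50), on day 14 mouse 5 (7.43) and on day 21 mouse 5 (7.86). Day 23 mouse 1 and healthy mouse 3 both read 8.03 without such markers. Their skeletal muscle markers averaged -0.37 and -0.03 log2 units from the healthy mean. The part of skeletal muscle in the Rspo3 values was not tested. The summed intensity of 10 skeletal muscle markers spanned 267 to 44567 on day 9, 331 to 6683 on day 14 and 357 to 19117 on day 21, against 422 to 582 in healthy mice, and all 10 were above background in some mouse. Without these 5 arrays the difference between 2 and 7 days was 0.42 (adjusted p = 0.069), and that between day 9 and day 14 was 0.61 (adjusted p = 0.53). Without them, day 9 averaged 0.17 log2 units below healthy mice in place of 0.21 above them, neither past the test. With the 3 arrays with squamous markers left out instead, the difference between 2 and 7 days was 0.44 (adjusted p = 0.088). That between day 9 and day 14 was then 0.85 (adjusted p = 0.23).

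Rspo1, which like Rspo3 amplifies the Wnt signal at the receptor, read 4.65, 5.72, 3.81, 5.23 and 4.72 log2 units on day 23 and 4.48, 4.38, 5.30, 5.60 and 5.42 on day 28, against 5.20, 5.31, 4.67 and 3.38 in healthy mice. It was above background in 4 and 3 of 5 mice on these days, in 1 or 2 of 5 on the earlier days and in 3 of 4 healthy mice. The linear trend over the 6 days was 0.30 log2 units per week (SE 0.14, adjusted p = 0.60), and in this comparison no member was called, beside 0.175% of all probes. Rspo2 was never above background, and Rspo4 was above it in 1 of 4 healthy mice and in none of the TNBS mice. With the 99th percentile as background, Rspo4 was above it in 0 of the 34 mice.

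**Figure D3:**
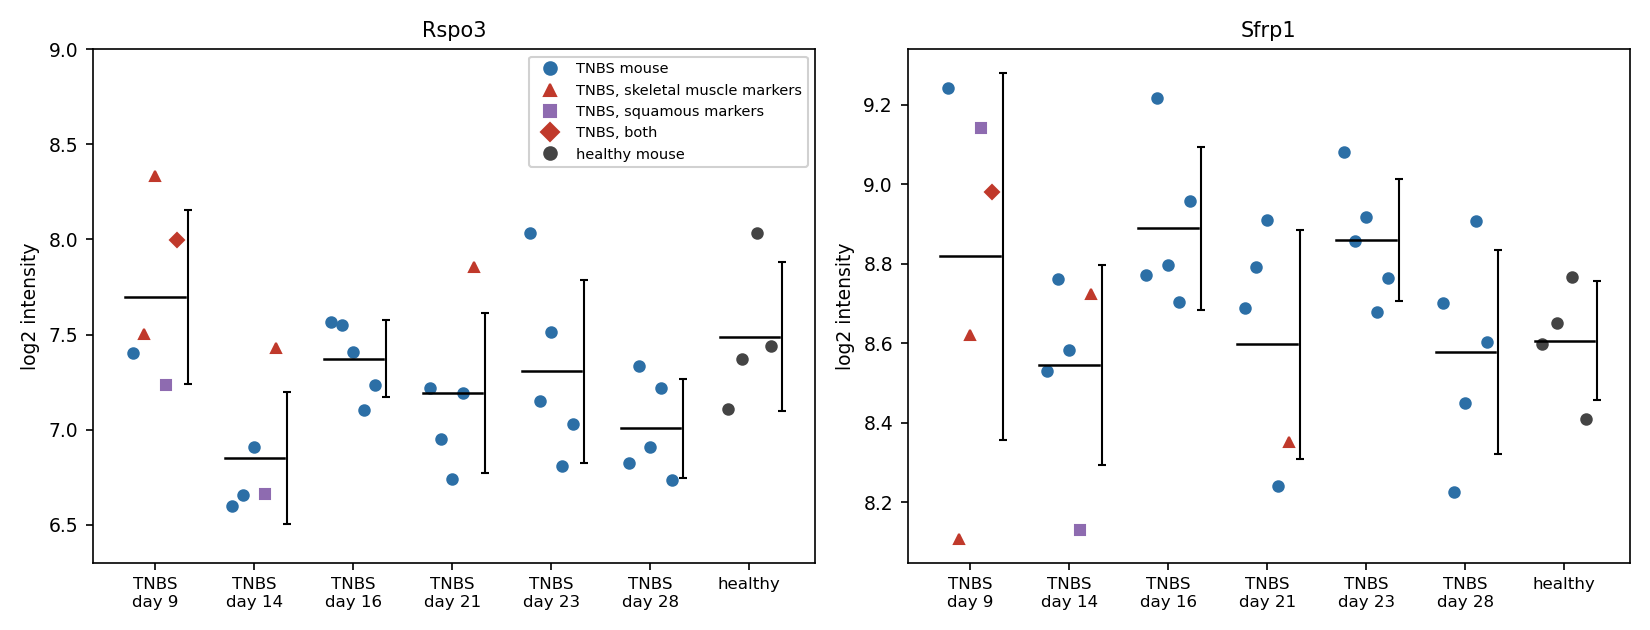
Log2 intensity of Rspo3 and Sfrp1 in each mouse, with group mean (line) and SD (whisker), for the 6 TNBS days and healthy mice. Mice with skeletal muscle markers, squamous markers or both are drawn with their own symbols. The mice with skeletal muscle markers hold the top Rspo3 values of days 9, 14 and 21. The top Rspo3 values of day 23 and of healthy mice (8.03 each) belong to mice without these markers.

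Fzd7, a Wnt receptor of intestinal stem cells, was among the steadiest members. It read 7.48, 7.38, 7.68, 7.13 and 7.53 log2 units on day 9 and 7.31, 7.76, 7.24, 7.54 and 7.68 on day 23, against 7.33, 7.32, 7.63 and 7.84 in healthy mice. On no day did its mean depart from the healthy mean by more than 0.20 log2 units, and all its 95% intervals lay between -0.50 and 0.47. A change of 1.5-fold in either direction was thus outside the interval on every day.

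Fzd6, a receptor with a role in planar cell polarity, read 7.01, 6.0, 5.91, 6.69 and 6.18 log2 units on day 14, against 6.94, 6.84, 6.95 and 7.04 in healthy mice. The groups overlapped through day 14 mouse 1 alone. The log2 change on day 14 was -0.58 (SE 0.20, 95% interval -1.0 to -0.17), with an adjusted p of 0.23. On the other days it ran from -0.35 to -0.08, and none was called.

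Fzd2, which was singled out after its values were seen, read 6.61, 6.63, 7.35, 7.13 and 7.02 log2 units on day 16 and 6.99, 7.09, 6.80, 6.69 and 7.33 on day 21, against 5.85, 6.03, 6.03 and 6.75 in healthy mice. On both days the only overlap was with healthy mouse 4. The log2 changes were 0.78 on day 16 (SE 0.31, adjusted p = 0.17) and 0.81 on day 21 (SE 0.31, adjusted p = 0.26), and on every day the mean was above the healthy mean, by 0.26 or more. None of these differences passed the test.

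Fzd1 was also singled out after its values were seen, since it was not above background in any healthy mouse. It read 5.41, 5.07, 5.18, 5.56 and 5.38 log2 units on day 21 and 6.41, 4.81, 5.27, 4.94 and 5.47 on day 23, all above background, against 4.44, 4.51, 4.19 and 4.40 in healthy mice. The groups did not overlap on either day. Taking background as the healthy level, Fzd1 was at least 1.56-fold higher on day 21 and at least 1.63-fold higher on day 23. With the 99th percentile of the receptor probes as background, Fzd1 was above background in only 3 of the 34 mice.

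The joint fit gave Fzd1 log2 changes of 0.93 on day 21 (SE 0.59, adjusted p = 0.59) and 1.00 on day 23 (SE 0.59, adjusted p = 0.37). On other days 1 day 14 mouse and 2 day 28 mice stood at the floor of 2.32. With only the day 21 and healthy mice in the fit, day 21 passed the threshold (adjusted p = 0.038). The spread in that fit came in part from healthy values that were not above background. Between day 23 and day 28, where it read 2.32, 4.83, 4.89, 2.32 and 4.73 and was above background in 2 of 5 mice, the fitted log2 change was 1.56 (SE 0.56, adjusted p = 0.19), and it was 0.76 (adjusted p = 0.25) with a floor of 20 in place of 5. With each day 28 mouse set to background or its own higher value, Fzd1 was at least 1.5-fold higher on day 23, in a comparison with no member called beside 1.46% of all probes.

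The coreceptors showed no called change. Lrp5 was above background in every mouse, reading 5.63, 6.38, 5.63, 5.61 and 5.90 log2 units on day 23, against 6.20, 5.83, 5.15 and 6.01 in healthy mice. Its log2 changes ran from 0.03 to 0.34 over the 6 days, and every 95% interval lay inside a 2-fold change. Lrp6 averaged between 4.82 ± 1.48 (day 16) and 5.49 ± 0.35 (day 14) in TNBS mice and 5.70 ± 0.55 in healthy mice (SD, n = 5 and 4), and the log2 changes of -0.89 to -0.21 had adjusted p of 0.44 or more.

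Sfrp1, an antagonist that binds Wnt proteins and is made by stromal and smooth muscle cells, was above background in every mouse, and its mean was higher on each early day than on the late day of the same instillation. It read 9.24, 8.11, 8.62, 9.14 and 8.98 log2 units on day 9, 8.77, 9.22, 8.80, 8.70 and 8.96 on day 16 and 9.08, 8.86, 8.92, 8.68 and 8.76 on day 23. On the late days it read 8.53, 8.76, 8.58, 8.13 and 8.72 on day 14, 8.69, 8.79, 8.91, 8.24 and 8.35 on day 21 and 8.70, 8.23, 8.45, 8.91 and 8.60 on day 28, and in healthy mice 8.60, 8.65, 8.77 and 8.41. The phases overlapped, and the 3 early days lay 0.27 to 0.29 log2 units above their late days.

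The average Sfrp1 difference between 2 and 7 days was 0.28 log2 units (SE 0.10, 95% interval 0.08 to 0.49, adjusted p = 0.10). It was 0.40 (adjusted p = 0.018) without the 5 arrays with skeletal muscle markers, and 0.19 (adjusted p = 0.35) without the 3 arrays with squamous markers. In the same comparison 2.96% of all tested probes were called higher and 2.72% lower. Among the markers, 4 of 9 for smooth muscle were called lower (median -0.37), 3 of 8 for neutrophils and macrophages higher (median 0.75) and 2 of 7 for T, B and plasma cells lower (median -0.38). Of the other lists, 2 of 10 squamous epithelium markers (median 0.43), 2 of 8 endothelium markers (median 0.19) and 1 of 8 markers of enteric neurons and glia (median 0.13) were called higher, and of 11 stromal fibroblast markers 1 was higher and 1 lower (median 0.19). None was called of 10 skeletal muscle markers (median 0.59) or 11 colon epithelium markers (median -0.06). The part of these tissues and cell types in the Sfrp1 and Rspo3 values was not tested.

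Sfrp2, a related antagonist of fibroblasts singled out after its values were seen, had its highest mean in healthy mice. It read 5.39, 5.77, 4.79, 3.67 and 5.86 log2 units on day 9, 5.27, 5.56, 5.81, 5.24 and 4.47 on day 16 and 5.46, 5.56, 5.26, 3.29 and 5.09 on day 28, against 6.13, 6.61, 5.66 and 5.94 in healthy mice. Day 28 did not overlap healthy mice, and days 9 and 16 did so through healthy mouse 3. The log2 changes were -0.99 on day 9 (adjusted p = 0.19), -0.81 on day 16 (adjusted p = 0.27) and -1.15 on day 28 (SE 0.39, 95% interval -1.94 to -0.36, adjusted p = 0.16). On the other days they ran from -0.56 to -0.45, and none passed the test.

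**Figure D4:**
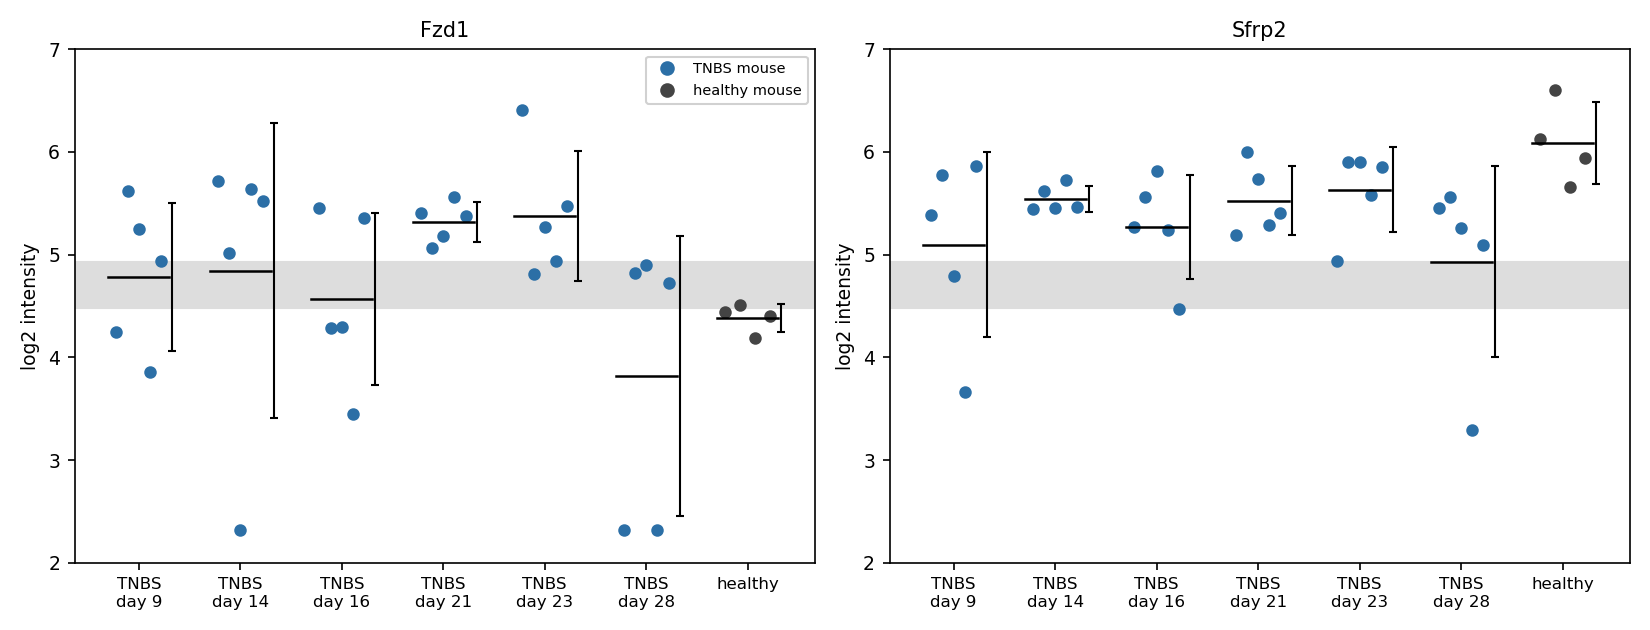
Log2 intensity of Fzd1 and Sfrp2 in each mouse, with group mean (line) and SD (whisker), for the 6 TNBS days and healthy mice. The grey band spans the background thresholds of the arrays (4.48 to 4.93), and points at 2.32 stand at the floor. Healthy mice lie below every Fzd1 point of days 21 and 23 and above every Sfrp2 point of day 28.

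Wif1, which also binds Wnt proteins, read 6.25, 6.34, 6.28, 6.28 and 6.40 log2 units on day 9, against 6.01, 5.99, 5.97 and 5.56 in healthy mice, with no overlap. The mean was 6.31 ± 0.06 on day 9 and 5.88 ± 0.22 in healthy mice (SD, n = 5 and 4), a log2 change of 0.43 (SE 0.23, adjusted p = 0.40). It was 0.38 (adjusted p = 0.69) without the arrays with skeletal muscle markers and 0.41 (adjusted p = 0.58) without those with squamous markers, which between them include 4 of the 5 day 9 mice. From day 14 on, the changes ran from -0.09 to 0.18. No antagonist was called in any comparison of the joint fit.

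Dkk3, a divergent Dickkopf protein that does not bind the coreceptors as its relatives do, gave the most precise values of all members. Probe ILMN_2852957 read 10.11, 9.75, 10.03, 9.77 and 9.69 log2 units on day 16 and 9.91, 9.93, 10.01, 9.90 and 9.80 on day 28, against 10.15, 10.23, 10.37 and 10.13 in healthy mice. Neither day overlapped healthy mice. The log2 changes were small, -0.35 on day 16 (SE 0.13, adjusted p = 0.12) and -0.31 on day 28 (SE 0.13, adjusted p = 0.27).

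Day 21 departed from this. The same Dkk3 probe read 10.45, 10.29, 10.25, 10.05 and 10.45 on day 21, with a mean 0.08 log2 units above the healthy mean, and the log2 change for day 16 against day 21 was -0.43 (SE 0.12, 95% interval -0.67 to -0.19), with an adjusted p of 0.064. No member was called in that comparison, beside 1.21% of all probes, although this probe passed the threshold under 5 other settings of the fit. Probe ILMN_2746556 gave -0.20 for the same step (adjusted p = 0.40) and read 9.68, 9.86, 9.82, 9.78 and 9.72 on day 28, against 10.05, 10.01, 10.12 and 9.97 in healthy mice (log2 change -0.27, adjusted p = 0.29).

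The 2 steady Dkk3 probes moved together over the 34 arrays (Pearson r = 0.63, permutation p = 0.0001, adjusted 0.0009, Spearman rho = 0.62, permutation p = 0.00014, adjusted 0.0013), also without the 2 arrays farthest from the median (r = 0.53) and within groups (r = 0.48). Of 9 pairs of probes for the same gene that were compared in this way, these and the Wnt4 pair were the only ones past the threshold after Benjamini-Hochberg adjustment. In the Wnt4 pair and in each of the other 7, 1 probe or both was above background in fewer than all arrays.

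**Figure D5:**
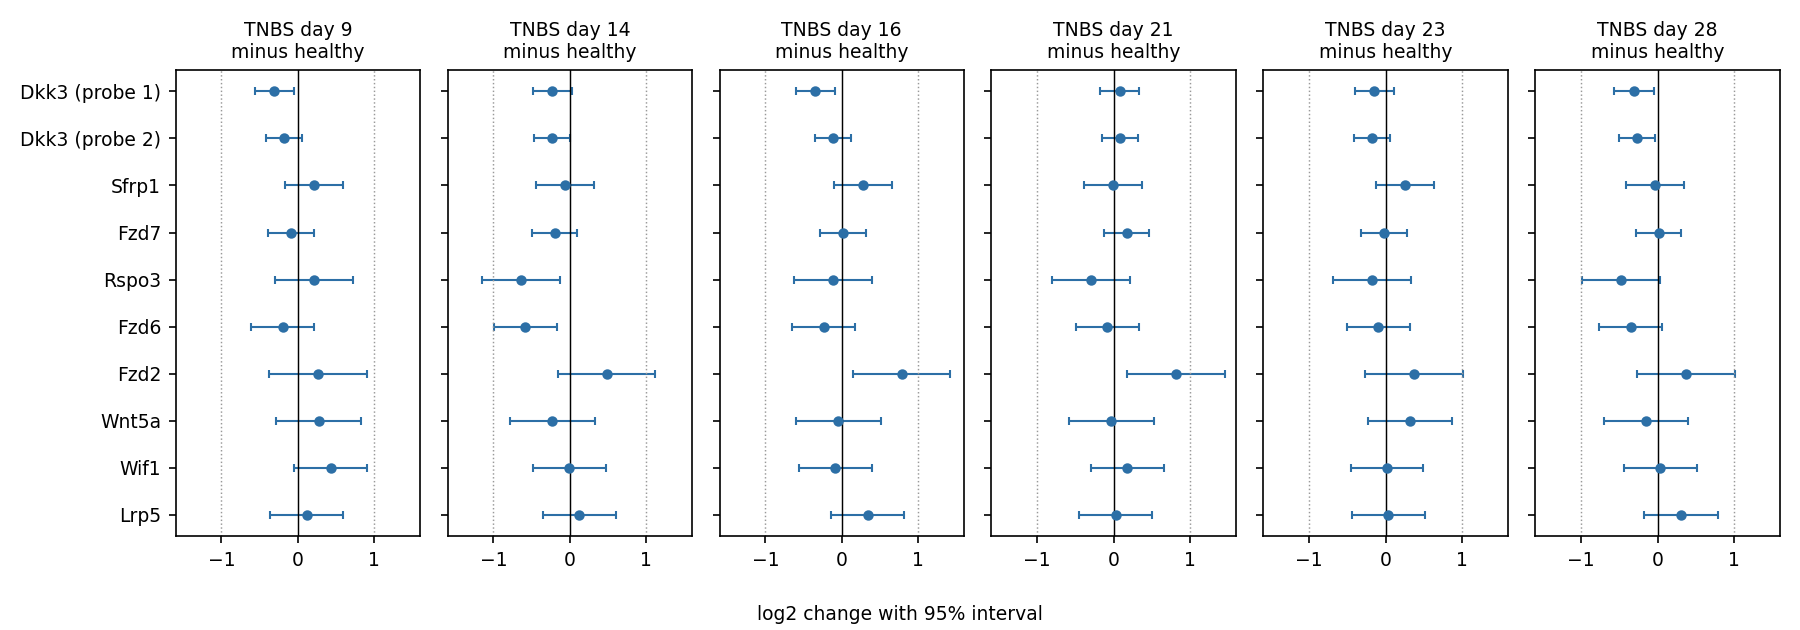
Log2 change of the 10 member probes above background on all arrays, TNBS day minus healthy, with 95% intervals from limma (horizontal bars), for each of the 6 days. Dotted lines mark a 2-fold change. Of the intervals, 10 of 10 lie inside a 2-fold change on day 9, 8 on day 14 and 9 on each later day.

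The intervals bound the change of the members that were always measurable. Of the 10 probes above background on all arrays, 10 had a 95% interval inside a 2-fold change in either direction on day 9, 8 on day 14 and 9 on each of days 16, 21, 23 and 28. The exceptions were Fzd2 (days 14, 16, 21, 23 and 28, upper bounds of 1.01 to 1.45 log2 units) and Rspo3 on day 14 (lower bound -1.15). Between 2 and 7 days after an instillation, all 10 lay inside a 2-fold change and 8 inside a 1.5-fold change. Of the 33 other tested probes, only 5 to 8 were bounded within a 2-fold change on any day.

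The spread between mice differed in the same way. The median SD within groups was 0.33 log2 units for the 10 steady probes (0.16 to 0.48), 0.76 for the 33 others (0.34 to 1.01) and 0.41 for all tested probes.

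The steps within and between instillations gave no further member calls. In day 9 against day 14, none of 43 probes was called, beside 0.734% of all probes, in day 23 against day 9 none beside 0.194%, in day 28 against day 14 none beside 0.00947%, and in the contrast of the early minus late difference after the third instillation with that after the first none beside 0.0805%. At an unadjusted p under 0.05 the members numbered 1, 0, 0 and 2 in these comparisons (0 to 4.65%), beside 11.8, 9.65, 7.96 and 8.02% of all probes.

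Genes that act with or after the surface components were counted from lists chosen for the pathway. Of 15 Wnt target genes tested, 1 was called higher on day 9, 2 on day 16, 3 on day 23 and 1 on day 28, with none lower. Of all tested probes, 1.19, 1.98, 3.49 and 0.72% were called higher on these 4 days. The list medians were 0.17 to 0.34 log2 units over the 6 days, beside -0.02 to 0 for all genes. The called genes were Cd44, a hyaluronan receptor also carried by leukocytes (0.78 on day 9, adjusted p = 0.025, 0.71 on day 16, adjusted p = 0.027, and 0.68 on day 23, adjusted p = 0.024), Sox9, a transcription factor of crypt progenitors (0.77 on day 16, adjusted p = 0.019, and 0.73 on day 23, adjusted p = 0.015), Ccn4, a matricellular protein of fibroblasts (1.01 on day 23, adjusted p = 0.0032), and Ascl2, a transcription factor of intestinal stem cells (1.27 on day 28, adjusted p = 0.043).

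Axin2, Lgr5, Rnf43 and Notum, which were to be named whatever their result, did not pass the test on any day. Whether they stood above background was not examined. Axin2, the feedback inhibitor, differed by 0.14 to 0.42 log2 units over the 6 days, with adjusted p between 0.16 and 0.77. The stem cell receptor Lgr5 differed by 0.34 to 0.99 (adjusted p of 0.34 or more). Rnf43, the ubiquitin ligase that removes Frizzled receptors, differed by -1.13 on day 23 (SE 0.44, adjusted p = 0.13) and by -0.54 to -0.08 on the other days, and Notum, an enzyme that inactivates Wnt proteins, by 0 to 0.26.

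Of 13 genes for Wnt secretion, coreceptors and receptor turnover, none was called on any day, and 1 was lower on day 16 than on day 21 (Gpc3, a heparan sulfate proteoglycan, -0.87, adjusted p = 0.048). Of 20 genes of the beta-catenin cascade inside the cell, none was called on any day, and 2 were lower 2 days than 7 days after an instillation, the transcription factor Tcf7l1 (-0.31, adjusted p = 0.022) and the corepressor Tle1 (-0.24, adjusted p = 0.031). Of 11 planar cell polarity and noncanonical genes, Vangl2, a core polarity protein, was higher on day 23 (1.30, adjusted p = 0.047), and Daam1, a formin downstream of Dishevelled, was lower 2 days than 7 days after an instillation (-0.36, adjusted p = 0.026). Of all tested probes, 0.578% were called lower on day 16 against day 21. The shares were 2.72% lower for 2 against 7 days and 3.49% higher on day 23. The lists were not tested as sets.

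The genes whose pattern over the 34 arrays was most like that of Wnt5a probe ILMN_2472917 were Ltbp3 (Pearson r = 0.73), Snx18 (r = 0.66) and Vat1 (r = 0.63). These are descriptions over arrays that share their groups and their normalization.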

How the data were processed

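Processed values of 34 arrays were used, 1 for each mouse, in 7 groups taken from the labels. As given in the methods, the authors subtracted background in BeadStudio (the submitters' processing notes name GenomeStudio) and quantile normalized all arrays in GeneSpring. The deposited values are log2 intensities, a scale inferred from the values, and genes were named from the platform annotation, with all 57 member probes matched in RefSeq. Another deposited table of values that were not normalized has 68 columns labelled by chip position, which could not be tied to a mouse and were not used.

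The floor of 5 and the removal of unexpressed probes that the methods describe had not been applied to the deposited table and were applied here: values were floored at 5, and the test kept the 21110 probes that exceeded this floor on 4 or more arrays. All groups entered 1 fit with lmFit and eBayes (limma 3.58.1, R 4.3.3), and p-values were adjusted by Benjamini-Hochberg over all tested probes within a contrast, at 0.05. Intervals are 95% intervals of the moderated fit, and the script was tested on simulated data. Quantile normalization fixes the distribution of each array, so that changes are relative to it. The number of arrays limits precision. A fold stated as "at least" sets the mean of the brighter group against background in the other, or against a mouse's own value where that was higher. Such a fold makes no allowance for sampling error. Correlations of probe pairs used 100000 permutations.

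Named members were those called, the 2 with the highest means in each role, 20 known in the colon, and, from the pathway lists, called genes with Axin2, Lgr5, Notum and Rnf43. Values for each mouse were to be given for those called and up to 8 of the 20, and those of Wnt2, Fzd1, Fzd2, Fzd6 and Sfrp2 were added after values were seen. Members, lists and tests were chosen with earlier results of these data known. Alternatives were another floor, an added constant, other filters, fits of only the groups compared, trend and robust moderation, array weights, the mouse number as a block, adjustment over 6 days, a minimum fold of 1.5, and leaving out each array. Leaving out arrays with skeletal muscle or squamous markers was chosen after seeing the data.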

Additional observations from a re-analysis of the deposited data

Results flagged for a closer look

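Among 18 member probes, 126 groups of 4 or 5 mice were screened for a mouse far from the others of its group, and 10 were found, while chance alone gives about 1 in 20 such groups. Among ligands and R-spondins, Wnt5a probe ILMN_2472917 stood at 2.61 log2 units in day 16 mouse 2, with the other 4 between 4.70 and 5.15. Rspo1 stood at the floor of 2.32 in day 14 mouse 5, with the others between 4.32 and 5.05.

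Among receptors, Fzd1 stood at the floor of 2.32 in day 14 mouse 3 (others 5.02 to 5.71), Fzd2 at 5.39 in day 28 mouse 1 (others 6.72 to 7.08), Fzd7 at 7.64 in day 14 mouse 4 (others 7.20 to 7.30), Lrp5 at 6.49 in day 14 mouse 1 (others 5.76 to 5.84) and Lrp6 at 4.89 in healthy mouse 4 (others 5.90 to 6.03). Day 14 mouse 4 also had squamous epithelium markers.

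Among antagonists, Sfrp2 stood at 3.29 in day 28 mouse 4 (others 5.09 to 5.56), Wif1 at 5.56 in healthy mouse 4 (others 5.97 to 6.01) and Dkk3 probe ILMN_2746556 at 10.23 in day 16 mouse 3 (others 9.81 to 9.91). Healthy mouse 4 was thus low for Lrp6 and for Wif1.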

How the results depend on the processing

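Of 35 single log2 changes, 25 kept their sign and their side of the threshold in every alternative. Counts of called member probes moved between 0 and 2. On day 23, the count of 1 (Wnt5a) was 0 with only the compared groups in the fit, with array weights, with adjustment over 6 days and without arrays with skeletal muscle markers. On day 21 it was 1 (Fzd1) with only the compared groups. For 2 against 7 days after an instillation it was 1 (Rspo3) with a floor of 20, with a constant of 16 added, with only probes above background and with trend and robust moderation, and 1 (Sfrp1) without arrays with skeletal muscle markers. For day 9 against day 14 it was 1 (Rspo3) with trend and robust moderation. For day 16 against day 21 it was 1 (Dkk3) with a floor of 20, with only probes above background, with trend and robust moderation and with array weights. Leaving out 1 array at a time gave 0 to 1 on day 16, 0 to 2 on day 23 and for 2 against 7 days, and 0 to 1 for day 9 against day 14 and day 16 against day 21. Those calls were of Wnt5a, Rspo3, Dkk3 and Sfrp1, and also of Rspo4 without healthy mouse 3 (days 16 and 23) and Wnt6 without day 14 mouse 1 (2 against 7 days). Wnt5a probe ILMN_2472917 on day 23 ran from 1.18 to 1.82, and its call was lost in 10 of 34 such fits. Rspo3 for 2 against 7 days ran from 0.38 to 0.50 and passed in 11 of 34. Without arrays with skeletal muscle markers, day 9 against healthy turned to -0.22 for Wnt5a probe ILMN_2511913 to -0.17 for Rspo3 and to -0.195 for Wnt4 probe ILMN_2889641. On day 14, where that Wnt4 probe differed by 0.02, it turned to -0.132 without those arrays, to -0.245 without arrays with squamous markers, to -0.041 with array weights and to -0.13 with the mouse number as a replicate block, and ran from -0.245 to 0.45 with 1 array left out. With the 99th percentile as background, 5 genes were above it on all arrays, against 9.

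Mouse numbers are shared between groups but do not pair mice: the deviations of the 99 pairs of arrays with the same number correlated by 0.01 on average, 6 pairs exceeded 0.1, and 10 of 34 arrays correlated best with their own number. With the mouse number as a replicate block, the count was 0 on day 23 (Wnt5a log2 change 1.43, adjusted p = 0.062) and 1 for day 16 against day 21 (Dkk3, adjusted p = 0.040), and no other count changed. Signal near background limits 33 of the 43 tested probes. The cause of these changes was not tested.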
